A study of Homo sapiens with 4 samples.

Results

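The transcripts of 10 chaperones and co-chaperones of the endoplasmic reticulum (ER) were followed in A549 cells, a human lung adenocarcinoma line. The members were taken by gene symbol, not by a measured value, but with earlier results of these data known. All 10 were found among the 25192 genes of each deposited table. They are HSPA5 (an HSP70), its nucleotide exchange factors HYOU1 and SIL1, its J-protein partners DNAJB9, DNAJB11, DNAJC3 and DNAJC10, the HSP90 of the ER HSP90B1, and the lectin chaperones CANX and CALR. The study transduced A549 cells with a retrovirus carrying the FCN3 coding sequence with a V5 tag, or with the control empty virus (EV), which carried GFP only. Both viruses share the same GFP-expressing backbone, and FCN3 encodes Ficolin 3, a secreted lectin that is itself folded in the ER. RNA was taken 48 h after infection from 2 libraries with EV and 2 with the FCN3 virus, and the comparison asks which transcripts differ once FCN3 is expressed. The labels do not say whether the replicates were separate cultures, so p-values measure the spread between these libraries only. No selection of GFP-positive cells is described for them.

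Proteins enter the ER lumen unfolded and are held by HSPA5, also known as BiP or GRP78, which binds exposed hydrophobic stretches. J proteins deliver clients and trigger ATP hydrolysis, which locks the client in place, and nucleotide exchange factors release ADP so that the client is let go. HSP90B1, also known as GRP94, acts on a narrower set of clients, while CANX (calnexin, membrane-bound) and CALR (calreticulin, soluble) hold glycoproteins through their sugar chains. When unfolded protein accumulates, the unfolded protein response (UPR) raises transcription of many of these genes, in part through an ER stress response element (ERSE) in their promoters that ATF6 and XBP1 recognise together with NF-Y.

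The promoters are printed first because the ERSE was described in genes of this kind. A window of 250 bases before and 50 after each annotated start was taken from RefSeq on GRCh38.p14, and all 10 members matched, with 13 windows since CANX has several starts. The ERSE was searched on both strands as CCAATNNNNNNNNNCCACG and the ERSE-II as ATTGGNCCACG. Of 27305 genes with a window, 25 (0.0916%) held an exact ERSE and 19 (0.0696%) an exact ERSE-II. Among the members, HSPA5, HSP90B1, CALR and CANX held an ERSE and HYOU1 held the ERSE-II. The parts before the start are given on the gene's own strand, 5′ to 3′, for these genes and for SIL1, which held neither, and capitals mark the ERSE or ERSE-II.
HSPA5 (chr9:125241344-125241593, minus strand): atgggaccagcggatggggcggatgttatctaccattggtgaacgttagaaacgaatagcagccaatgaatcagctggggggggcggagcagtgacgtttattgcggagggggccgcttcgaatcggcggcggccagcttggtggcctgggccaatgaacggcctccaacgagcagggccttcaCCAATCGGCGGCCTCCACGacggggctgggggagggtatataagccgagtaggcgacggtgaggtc
HSP90B1 (chr12:103930160-103930409, plus strand): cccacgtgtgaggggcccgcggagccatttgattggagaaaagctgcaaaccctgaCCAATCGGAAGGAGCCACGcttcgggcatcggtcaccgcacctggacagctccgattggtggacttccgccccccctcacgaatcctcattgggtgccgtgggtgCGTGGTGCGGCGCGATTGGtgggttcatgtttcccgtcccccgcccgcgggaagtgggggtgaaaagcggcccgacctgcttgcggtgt
CALR (chr19:12938359-12938608, plus strand): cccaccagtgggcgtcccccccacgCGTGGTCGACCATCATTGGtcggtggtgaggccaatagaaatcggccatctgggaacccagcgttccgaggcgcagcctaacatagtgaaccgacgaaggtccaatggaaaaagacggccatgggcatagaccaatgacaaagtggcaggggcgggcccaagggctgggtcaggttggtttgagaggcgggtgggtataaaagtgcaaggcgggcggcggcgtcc
CANX (chr5:179698679-179698928, plus strand): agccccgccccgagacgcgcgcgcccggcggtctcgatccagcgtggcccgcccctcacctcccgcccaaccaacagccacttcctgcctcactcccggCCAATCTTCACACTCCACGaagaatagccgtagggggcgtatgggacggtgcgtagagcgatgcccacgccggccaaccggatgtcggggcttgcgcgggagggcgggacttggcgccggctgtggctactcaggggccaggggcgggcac
HYOU1 (chr11:119057206-119057455, minus strand): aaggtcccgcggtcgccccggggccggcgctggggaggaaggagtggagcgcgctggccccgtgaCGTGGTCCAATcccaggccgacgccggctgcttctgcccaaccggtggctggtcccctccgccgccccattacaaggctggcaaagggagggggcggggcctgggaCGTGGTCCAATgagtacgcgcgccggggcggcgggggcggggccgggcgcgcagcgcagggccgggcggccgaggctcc
SIL1 (chr5:139198369-139198618, minus strand): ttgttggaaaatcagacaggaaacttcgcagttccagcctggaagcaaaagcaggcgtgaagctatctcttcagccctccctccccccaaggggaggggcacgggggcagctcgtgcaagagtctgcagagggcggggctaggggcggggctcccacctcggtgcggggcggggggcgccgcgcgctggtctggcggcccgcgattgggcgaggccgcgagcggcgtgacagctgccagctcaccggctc

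The ERSE of HSPA5 began 66 bases before the start. HSP90B1 held 2 copies, one read along the gene from 194 bases before the start and one on the opposite strand from 89 bases before it. In CALR the match lay on the opposite strand from 225 bases before the start, and in CANX along the gene from 151 bases before the start of this window. HYOU1 held the ERSE-II 2 times on the opposite strand, from 185 and from 79 bases before the start. The core of the UPR element (TGACGTGG, both strands), was present in 253 of the 27305 genes (0.927%) and in HYOU1 and DNAJC10 among the members. In HYOU1 it overlapped the farther ERSE-II. The core of the amino acid response element (TGATGNAA, both strands), which ATF4 and its partners bind, was in none of the members and in 4.46% of genes. DNAJB9, DNAJB11, DNAJC3 and SIL1 held no exact match to any of these letters in their windows. A match is a string of letters and was not tested as a binding site.

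The tables held between 16353554 and 35733735 expected counts a library, with replicate 1 the deeper in both groups. FCN3 itself was listed at 1 and 0 expected counts with EV and at 722388 and 448352 with the FCN3 virus. The label of an epithelial cancer line was set against marker genes. All 9 epithelial and A549 markers, KRT8 and KRT18 among them, were at 1 TPM or more in every library, although EPCAM and CDH1 stayed under 10 TPM. The summed level of this list ran from 15667 to 17198 TPM with EV and from 13310 to 14984 TPM with the FCN3 virus. Summed markers of fibroblasts (3.49 to 8.26 TPM with EV, 2.80 to 8.10 with the FCN3 virus), immune cells (1.06 to 1.99 and 0.32 to 0.87) and endothelial cells (0 to 0.05, and 0.08 in both FCN3-virus libraries) were low, with DCN, CD3E and PECAM1 at 0 in every library, and the part of these differences in the results was not tested. In such bulk RNA, fewer cells of a kind and less RNA per cell cannot be told apart, and a level is an average over the culture.

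All 10 chaperone transcripts were higher in both FCN3-virus libraries than in both EV libraries. Expected counts were rounded, normalized by TMM and tested with edgeR's quasi-likelihood test over 14099 genes, and a gene was called at a Benjamini-Hochberg adjusted p under 0.01. On this rule 8 of the 10 members rose, where 0.738% of all tested genes were called higher and 0.227% were called lower. Their median log2 fold change was 2.26, beside 0.02 over all tested genes, and the members ran from 0.96 to 3.19. A log2 fold change of at least 1 was reached by every member except SIL1, against 3.75% of tested genes. Both FCN3-virus libraries lay above both EV libraries in normalized CPM (counts per 1000000) in 10 of 10 members and in 28.0% of tested genes. The members not called were SIL1 and CANX. When the replicate number was added as a block, all 10 were called, but so were 19.1% of tested genes in that direction. The block fit on 4 libraries leaves little spread to measure within a gene. Its small p-values therefore rest largely on spread pooled over genes. DESeq2, the test named in the study, likewise called all 10 beside 4.45% of genes.

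**Figure D1:**
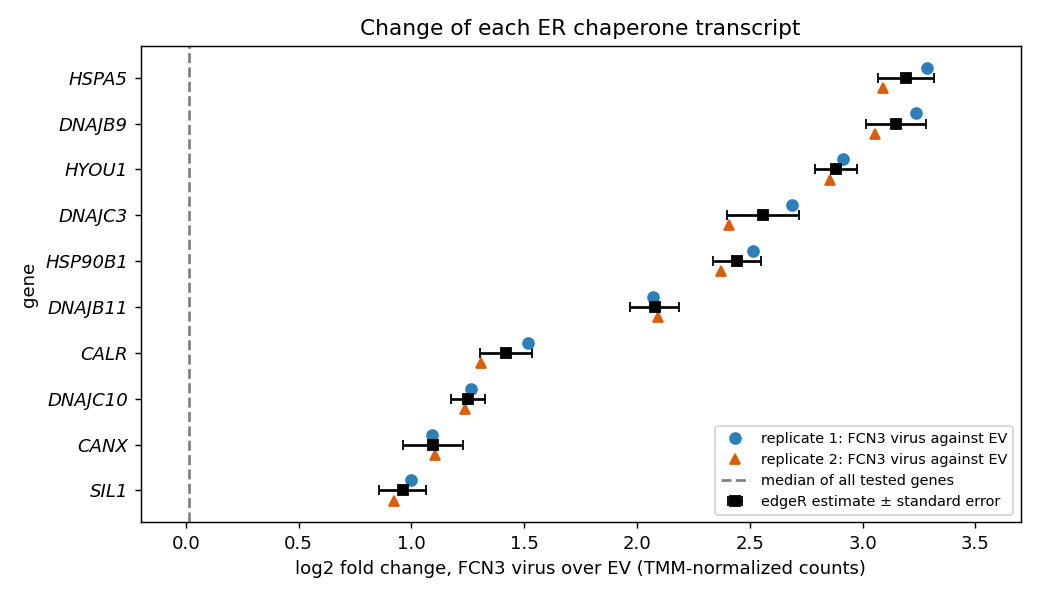
Log2 fold change of FCN3 virus over EV on TMM-normalized counts for each member, as the edgeR estimate with its standard error (squares) and within replicate 1 (circles) and replicate 2 (triangles). Every point lies right of the median of all tested genes (0.02, dashed), from 0.92 for SIL1 in replicate 2 to 3.28 for HSPA5 in replicate 1.

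HSPA5, the HSP70 of the ER lumen, had the highest fold change of the members, within a standard error of that of DNAJB9. The gene occupies chromosome 9 of GRCh37 from 127997132 to 128003661 on the minus strand and is protein-coding. Its level was 362 and 357 TPM with EV and 3243 and 2872 TPM with the FCN3 virus. The EV values lay close together and far below the other pair. By abundance HSPA5 moved from rank 382 and 384 of all genes with EV to rank 46 in both FCN3-virus libraries. The fold change on counts was 9.13, a log2 fold change of 3.19 (standard error 0.12, edgeR adjusted p = 9.9e-04), which ranked 33 among the 14099 tested genes.

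Nucleotide exchange factors differed from each other. HYOU1, a large HSP70-related protein also known as GRP170 (chromosome 11 of GRCh37, 118914899 to 118927938, minus strand), was at 49.0 and 46.3 TPM with EV and at 335 and 313 TPM with the FCN3 virus. It rose 7.38-fold, by 2.88 on the log2 scale (standard error 0.09, edgeR adjusted p = 5.9e-04), with 2.91 in replicate 1 and 2.86 in replicate 2. SIL1, also known as BAP, whose loss causes Marinesco-Sjögren syndrome, lies on chromosome 5 (138282413 to 138629246, minus strand). Its levels were 28.8 and 27.5 TPM with EV and 53.1 and 49.1 TPM with the FCN3 virus. These groups did not overlap, yet SIL1 was not called: its log2 fold change was 0.96 (standard error 0.10, edgeR adjusted p = 0.012, and 1.0e-16 with the replicate block). HYOU1 was thus present at 1.70 and 1.68 TPM per TPM of SIL1 with EV and at 6.31 and 6.37 with the FCN3 virus. With 2 libraries against 2, an exact two-sided permutation test of such a ratio cannot give a p below 0.333.

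Among the J proteins, DNAJB9 (ERdj4, which also binds IRE1) rose most and was the least abundant member with EV. Its gene spans 108210311 to 108215294 on the plus strand of chromosome 7. It was at 8.11 and 7.65 TPM with EV, from 382 and 167 expected counts, and at 70.4 and 60.0 TPM with the FCN3 virus. The fold change was 8.87 (log2 3.15, standard error 0.13, edgeR adjusted p = 0.0012). DNAJC3 (p58IPK, which also inhibits eIF2alpha kinases, chromosome 13, 96329393 to 96447242, plus strand) was at 11.4 and 10.3 TPM with EV and at 67.3 and 51.8 TPM with the FCN3 virus. Of the members it had the widest gap between the FCN3-virus replicates on the log scale, and it rose 5.89-fold (log2 2.56, standard error 0.16, edgeR adjusted p = 0.0030). Within replicate numbers its log2 fold change was 2.69 and 2.41.

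DNAJB11 (ERdj3, which binds unfolded clients directly, chromosome 3, 186285192 to 186303589, plus strand) was at 73.4 and 64.4 TPM with EV and at 283 and 259 TPM with the FCN3 virus. It rose 4.22-fold (log2 2.08, standard error 0.11, edgeR adjusted p = 0.0021). DNAJC10 (ERdj5, a J protein that is also a disulfide reductase, chromosome 2, 183580982 to 183659191, plus strand) had the tightest replicates, at 84.6 and 83.6 TPM with EV and at 187 and 186 TPM with the FCN3 virus. Its rise was the smallest of the J proteins, 2.38-fold (log2 1.25, standard error 0.08, edgeR adjusted p = 0.0030). The make-up of the J-protein group changed with these unequal rises. DNAJC10 held 47.7% and 50.4% of the summed TPM of the group with EV and 30.8% and 33.4% with the FCN3 virus, whereas DNAJB9 held 4.57% and 4.61% and then 11.6% and 10.8%. DNAJB11 went from 41.3% and 38.8% to 46.6% and 46.5%.

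HSP90B1 (chromosome 12 of GRCh37, 104323885 to 104347709, plus strand) was at 693 and 714 TPM with EV and at 3638 and 3484 TPM with the FCN3 virus. It was the most abundant member with the FCN3 virus, at ranks 36 and 37 of all genes, up from ranks 209 and 203. It rose 5.44-fold (log2 2.44, standard error 0.11, edgeR adjusted p = 0.0012).

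The lectin chaperones were among the 3 most abundant members by mean TPM with EV, and their log2 fold changes ranked 7 (CALR) and 9 (CANX) among the 10. CALR (chromosome 19, 13049392 to 13055303, plus strand) was at 723 and 693 TPM with EV and at 1904 and 1619 TPM with the FCN3 virus, a rise of 2.67-fold (log2 1.42, standard error 0.12, edgeR adjusted p = 0.0059). CANX (chromosome 5, 179105629 to 179158642, plus strand) was at 423 and 354 TPM with EV and at 829 and 718 TPM with the FCN3 virus. Both FCN3-virus values were above both EV values, and replicate 1 was the higher in each group. CANX had a log2 fold change of 1.10 (standard error 0.13) and was not called (edgeR adjusted p = 0.015, and 1.3e-25 with the replicate block), with 1.09 within replicate 1 and 1.10 within replicate 2. The CALR to CANX ratio in TPM was 1.71 and 1.96 with EV and 2.30 and 2.25 with the FCN3 virus.

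**Figure D2:**
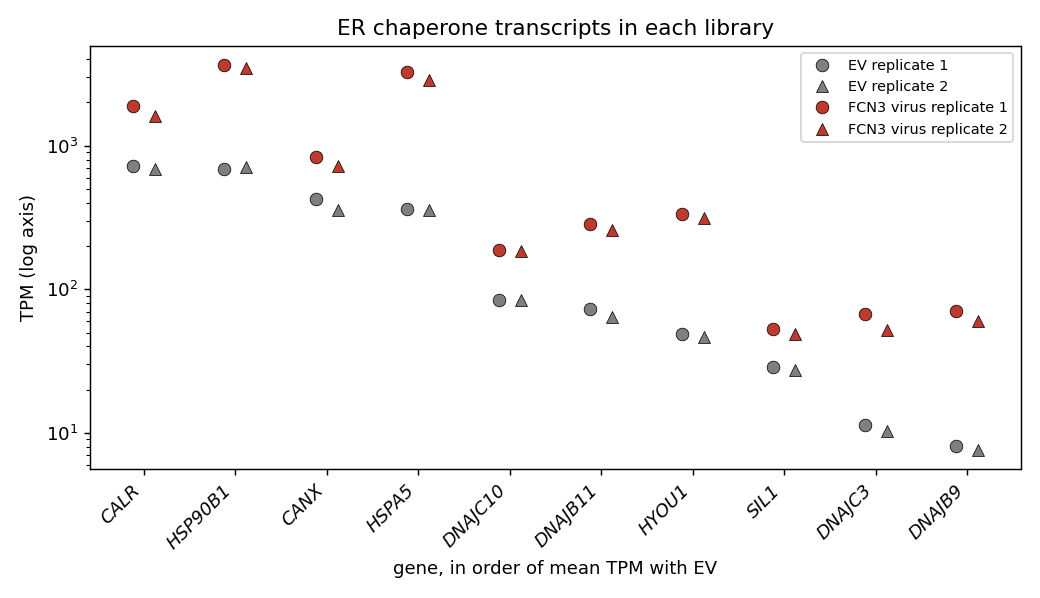
TPM (log axis) of each member in the 4 libraries, EV in grey and FCN3 virus in red, circles for replicate 1 and triangles for replicate 2, with genes in order of mean TPM with EV. For every member both red symbols lie above both grey symbols, and HSPA5 moves from the fourth to the second place.

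On the TPM scale, which is per transcript length, the order of the members with EV ran from CALR at 708 ± 21.1 TPM (SD, n = 2) and HSP90B1 at 703 ± 15.3 through CANX at 389 ± 49.2 and HSPA5 at 360 ± 3.71 to DNAJB9 at 7.88 ± 0.325. CALR and HSP90B1 overlapped between libraries, as did CANX and HSPA5, while the remaining neighbours in the order did not. With the FCN3 virus HSP90B1 led at 3561 ± 109 TPM, followed by HSPA5 at 3057 ± 263, CALR at 1762 ± 201 and CANX at 774 ± 78.2. At the lower end DNAJB9 at 65.2 ± 7.37, DNAJC3 at 59.5 ± 11.0 and SIL1 at 51.1 ± 2.82 overlapped one with the next. Summed over the 10 members, the level was 2457 and 2358 TPM with EV and 10611 and 9612 TPM with the FCN3 virus. HSPA5 made up 14.7% and 15.1% of that sum with EV and 30.6% and 29.9% with the FCN3 virus.

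Each partner was also set against HSPA5 within each library, which gives the balance of the machinery at the transcript level. HSPA5 had the highest fold change of the members, so a lower ratio restates a smaller rise than that of HSPA5. Per 100 TPM of HSPA5, the 4 J proteins together had 49.0 and 46.5 TPM with EV and 18.8 and 19.4 TPM with the FCN3 virus. HYOU1 had 13.5 and 13.0 and then 10.3 and 10.9, and SIL1 had 7.96 and 7.71 and then 1.64 and 1.71. DNAJC10 went from 23.4 in both EV libraries to 5.77 and 6.47, and DNAJB11 from 20.3 and 18.0 to 8.74 and 9.01. DNAJB9 was the exception, since its values of 2.24 and 2.14 with EV and 2.17 and 2.09 with the FCN3 virus overlapped. HSP90B1 exceeded HSPA5 in all libraries, at 191 and 200 TPM per 100 with EV and 112 and 121 with the FCN3 virus. CALR and CANX together went from 317 and 293 to 84.3 and 81.4, so that their summed level was above that of HSPA5 with EV and below it with the FCN3 virus. These ratios compare transcripts and not proteins, and the smallest two-sided p of an exact permutation test is 0.333 for each.

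**Figure D3:**
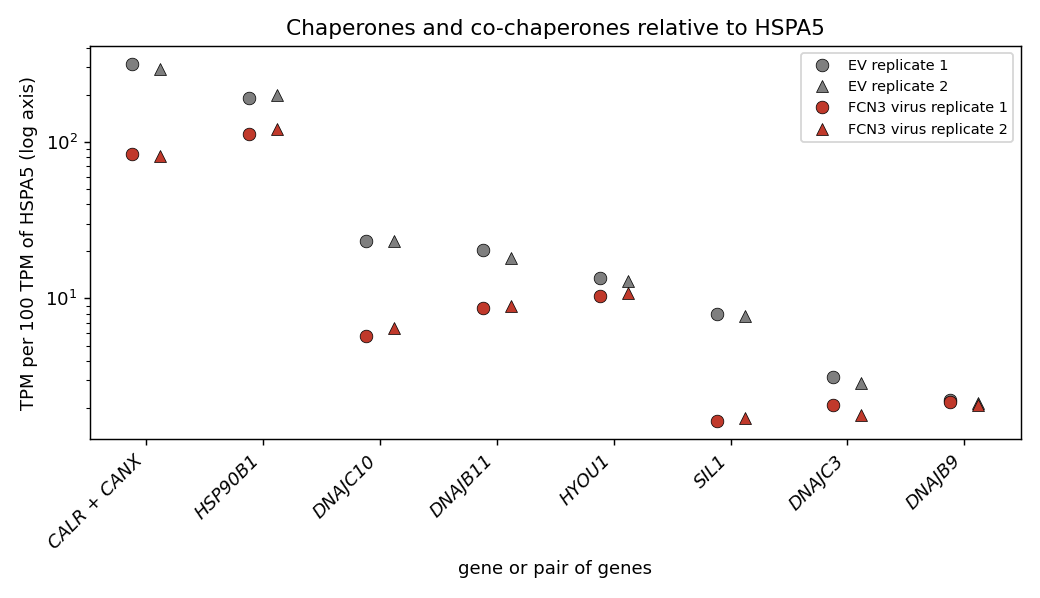
TPM per 100 TPM of HSPA5 (log axis) for its partners, the HSP90 and the sum of the lectin chaperones in the 4 libraries, with symbols and colours for library and group as in the legend. Red symbols (FCN3 virus) lie below grey symbols (EV) for all except DNAJB9, whose values of 2.09 to 2.24 overlap.

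Genes that work beside the members were counted from lists written from general knowledge, with earlier results of these data known. The first list held J proteins, partners and modifiers of HSPA5 and other folding factors of the ER, called HSPA5 partners below for short. DNAJB12, DNAJB14, DNAJC18 and CNPY3 were in it too, and action on HSPA5 itself was not required. Of these 16 genes, 14 were higher, against 7316 of all 14099 tested genes. At an adjusted p under 0.01, 6 rose and 0 fell, where 0.738% of tested genes were called higher and 0.227% lower. The median log2 fold change of the 16 was 0.43, beside 0.02 for all tested genes. At an unadjusted edgeR p under 0.05, 11 were higher and 1 was lower, where 13.6% of tested genes were higher and 11.6% lower. CRELD2, a secreted ER stress factor, rose by 3.68 on the log2 scale (edgeR adjusted p = 4.0e-04), SDF2L1, a partner of DNAJB11, by 2.69 (edgeR adjusted p = 0.0019), and FICD, which attaches AMP to HSPA5, by 2.45 (edgeR adjusted p = 0.0034). MANF (2.44), PDIA6 (1.54) and SEC63, the J protein of the translocon (1.15), were the others called. SDF2, the paralog of SDF2L1, was at -0.27 and was not called (edgeR adjusted p = 0.14). With the replicate block 11 of the 16 were called higher and SDF2 was called lower. In that fit 19.1% of tested genes were called higher and 17.1% lower.

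The lectin cycle adds glucosidases, the glucosyltransferase UGGT1 that marks misfolded glycoproteins for another round, and mannosidases that end it. Of 15 tested genes of this list 14 were higher, against 7316 of all 14099 tested genes. At an adjusted p under 0.01, 3 rose and 0 fell, where 0.738% of tested genes were called higher and 0.227% lower. The median log2 fold change of the list was 0.60. At an unadjusted edgeR p under 0.05, 9 were higher and 0 lower, against the same shares of tested genes (13.6% and 11.6%). EDEM1, which sends glycoproteins to degradation, rose by 1.81 (edgeR adjusted p = 0.0087), PDIA3, the disulfide isomerase bound to CANX and CALR, by 1.60 (0.0025), and the prolyl isomerase PPIB by 1.50 (0.0031). UGGT1 was at 0.82 and not called (edgeR adjusted p = 0.022). The glucosidase II subunits GANAB (0.14) and PRKCSH (-0.05) were not called either. The count called higher went to 10 of the 15 with the replicate block and to 8 in DESeq2. In these fits 19.1% and 4.45% of tested genes were called higher.

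HSP70, HSP110 and HSP90 genes outside the group, most of them of the cytosol or mitochondria, were examined as well. Of 17 tested, 0 were called in either direction by edgeR, 8 had an unadjusted p under 0.05 (2 higher, 6 lower), and the median log2 fold change was -0.21. At that p, 13.6% of tested genes were higher and 11.6% lower. Both FCN3-virus libraries lay below both EV libraries for 10 of the 17, against 26.5% of tested genes. HSPA8, the constitutive HSP70 of the cytosol, was at 2725 and 2516 TPM with EV and at 2130 and 2087 TPM with the FCN3 virus (log2 fold change -0.21, edgeR adjusted p = 0.26). HSP90AA1 was at 2456 and 2091 TPM and then at 1486 and 1416 TPM (-0.54, edgeR adjusted p = 0.059). The HSPA5 transcript was below that of HSPA8 in both EV libraries and above it in both FCN3-virus libraries. HSPA9, the mitochondrial HSP70, was at 0.31 (edgeR adjusted p = 0.082). HSPA13, an HSP70 found on microsomes, had the highest log2 fold change of the list at 1.33 (edgeR adjusted p = 0.018) and was not called. HSPA2 had the lowest at -1.45 (edgeR adjusted p = 0.15) and was not called either. It was at 38.4 and 78.9 TPM with EV and at 12.3 and 28.1 TPM with the FCN3 virus, with -1.52 within replicate 1 and -1.40 within replicate 2. With the replicate block 11 of the 17 were called lower and 2 higher, where 17.1% of tested genes were called lower and 19.1% higher. DESeq2 called 2 lower (3.47% of genes) and 1 higher (4.45% of genes).

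Of 9 regulators of the UPR, 3 rose, where 0.738% of all tested genes were called higher. DDIT3, a transcription factor downstream of ATF4, rose by 4.35 on the log2 scale (edgeR adjusted p = 4.0e-04), XBP1 by 1.55 (0.0030) and EIF2AK3, the gene of PERK, by 1.47 (0.0030). ERN1, the gene of IRE1, was at 1.32 (edgeR adjusted p = 0.016), ATF4 at 0.61 (0.026) and ATF6 at 0.42 (0.12), and these were not called. With the replicate block 6 of the 9 were called higher, ERN1, ATF4 and ATF6 among them, against 19.1% of tested genes. DESeq2 called 5 higher, with ERN1 and ATF4 but not ATF6, against 4.45% of genes. These are transcript levels, and cleavage of ATF6, splicing of XBP1 and phosphorylation of PERK were not measured in these tables. An exact ERSE was also present in the windows of CRELD2, FICD and PDIA6 among 15 partners with a window, of XBP1 among 9 regulators, and in 0 of 13 lectin cycle and 0 of 15 other HSP70 and HSP90 genes. In the same lists an exact ERSE-II was present only in SDF2L1. The amino acid response element core was present only in MCFD2 and HSPA4L, and the UPR element core in none.

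The pattern of HSPA5 over the 4 libraries was set against 8300 other genes whose mean log2 CPM was 4 or more, by Euclidean distance of centred log2 CPM. The nearest were SLFN5 (distance 0.39), CRELD2 (0.49), the pseudokinase gene TRIB3 (0.50), SDF2L1 (0.51) and the transcription factor gene ATF3 (0.59). Among the members DNAJB9 (0.08) and HYOU1 (0.31) were nearer than any of these, and SIL1 was the farthest (2.23). With 2 libraries in each group, this distance mostly restates how near a log2 fold change lies to that of HSPA5 (3.19). It is not separate evidence that genes vary together.

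Some counts could carry reads of other genes. The expected counts of all 10 members were whole numbers in every library, at the 2 decimals given. Exons of SIL1 overlap MATR3 and SNHG4 on the opposite strand in GENCODE on GRCh37, and MATR3 had 6571 to 17208 expected counts against 440 to 1857 for SIL1. DNAJB11 overlaps TBCCD1 on the opposite strand (174 to 430 expected counts) and CANX overlaps CBY3 (at most 1). On the same strand, exons overlap those of the protein-coding ENSG00000283149 (DNAJB11) and of the pseudogenes RPL31P15 (DNAJC10) and HMGB3P22 (CANX), for which no values were used here, and MIR3652 (HSP90B1), which had 0 counts in every library. The libraries kept strand, which cannot separate genes on the same strand, and the strand setting of the counting is not given in the sources used here. The share of such reads in SIL1 was not tested.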

How the data were processed

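Stranded mRNA libraries of A549 cells, 2 with EV and 2 with the FCN3 virus, were sequenced as paired-end reads. After trimming, the authors aligned reads to hg19 with STAR (version 2.6.1d in the submitters' processing notes) and ran RSEM. For each gene the authors deposited expected counts (estimated counts, not normalized), TPM and FPKM, both normalized by RSEM for length and depth, and transcript lengths (mean length over the transcripts of a gene). FPKM was not used. Groups and replicate numbers came from the sample titles. Totals were 35733735 and 16353554 expected counts (EV) and 35031565 and 20136068 (FCN3 virus), so counting error is larger in replicate 2.

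In R 4.3.3, expected counts were rounded and tested with edgeR 4.0.16 (filterByExpr, TMM, quasi-likelihood fit without the older method, Benjamini-Hochberg over 14099 genes, threshold 0.01). The study used the same threshold but with DESeq2, which is an alternative here, so the edgeR calls are not those of the study's own test. The standard error was taken as the size of the log2 fold change over the square root of F. TPM values, means and ratios were taken as deposited, with no pseudocount. limma 3.58.1 and DESeq2 1.42.0 were used for alternatives. The edgeR fit was tested on simulated data first. The alternatives were DESeq2, RLE factors, other filters on low counts, FCN3 left out, the older quasi-likelihood method, the replicate block, other thresholds, limma on log2(TPM + 1) and log2(TPM + 0.1), and each library left out. Named genes were all members, FCN3, genes of the 4 lists and the 5 genes nearest to HSPA5. Members and lists were chosen with earlier results of these data known. Promoters came from RefSeq (GRCh38.p14) and gene positions from GENCODE (GRCh37).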

Additional observations from a re-analysis of the deposited data

How the results depend on the processing

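Over 13 alternatives with a fold change for each member, 125 of 130 member results kept their direction and their side of the threshold, and the other 5 were SIL1 and CANX passing it: both in DESeq2 (1.8e-07 and 1.9e-11) and with the replicate block, and CANX without EV replicate 1 (log2 fold change 1.23, edgeR adjusted p = 0.0077). Over the alternatives the adjusted p of SIL1 ran from 1.0e-16 to 0.046 and that of CANX from 1.3e-25 to 0.039. The count of members called was 10 at an FDR of 0.05, and 8 to 9 with each library left out in turn. Their median log2 fold change was 2.17 to 2.32 with a library left out, 2.15 by limma with a pseudocount of 1 TPM and 2.16 with one of 0.1 TPM, scales on which the median of all genes was -0.07 and -0.09 in place of 0.02.

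The labels do not say what a replicate number stands for. Across 8310 genes with an average log2 CPM over 4, EV replicate 1 minus 2 and FCN3-virus replicate 1 minus 2 had a Pearson's r of 0.806 (genes are not replicates), and 0.438 over the 10 members. With the replicate block the calls over all genes went from 136 to 5103, HSPA5 partners from 6 to 12, the lectin cycle from 3 to 10, other HSP70 and HSP90 genes from 0 to 13 and the UPR regulators, whose alternatives were added after seeing the data, from 3 to 6. The cause was not tested. DESeq2 gave 1046 over all genes, 8 in the lectin cycle, 3 among other HSP70 and HSP90 genes and 5 among the regulators, and an FDR of 0.05 gave 1014, 7, 2 and 5. With each library left out, all genes called ranged from 92 to 267, the highest without EV replicate 2, partners from 5 to 6, and other HSP70 and HSP90 genes from 0 to 1, which was HSPA13 without EV replicate 1, EV replicate 2 or FCN3 replicate 2. Among 481 results for 37 genes of the 4 lists, 36 newly passed the threshold and 4 lost it: EDEM1 by limma on both TPM scales, and SEC63 with the pseudocount of 1 and without FCN3 replicate 1. DNAJB9 rests on the fewest counts of the members, 167 in EV replicate 2.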

Other observations

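Replicate 1 was above replicate 2 for 9 of 10 ER chaperone transcripts with EV and for 10 of 10 with the FCN3 virus, by -0.06 to 0.24 and by 0.03 to 0.40 on the log2 CPM scale. The widest gap was that of DNAJC3 with the FCN3 virus, while HSP90B1 with EV was the exception. Replicate 1 was also the deeper library in both groups, and the part of depth was not tested.

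HYOU1 is listed with several transcripts, and the mean transcript length that RSEM gives it was 4513 and 4510 bases with EV and 4560 and 4553 bases with the FCN3 virus. SIL1 (1904 to 1911 bases over the 4 libraries) and CANX (4946 to 4948 bases) overlapped between groups, and the other members are listed with a single transcript. The make-up of the HYOU1 transcripts was not tested, since the tables give no counts per transcript.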
